A study of Mus musculus with 12 samples.

Results

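The pyruvate dehydrogenase complex and the enzymes that switch it were followed in inguinal white adipose tissue (iWAT), a fat pad of the mouse that gains beige adipocytes in cold, through 10 genes that were chosen by name. Subunits of the complex are encoded by 4 of them (Pdha1, Pdhb, Dlat and Pdhx), its kinases by 4 (Pdk1 to Pdk4) and its phosphatases by 2 (Pdp1 and Pdp2). All 10 were among the 23420 genes of the count table, and all 10 were among the 15306 genes kept for testing after a filter on low counts. RNA was sequenced from 12 male C57BL/6 mice at 10 weeks of age, with 1 library per mouse and 3 mice per group. The WT animals carried HIF2a loxP/loxP alleles without Cre. HIF2α AKO mice carried the same alleles with Adipoq-Cre, which acts in all adipocytes, so that Cre and the deletion were always present together. Mice of each genotype were kept at thermoneutrality (TN, 30 °C for 1 week) or in cold (4 to 6 °C for 3 days). The number of reads counted within genes ran from 22368316 in the shallowest library to 35204631 in the deepest. No source used here says whether the mice were littermates or were handled on the same days.

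The complex sits in the mitochondrial matrix and turns pyruvate into acetyl-CoA, the step that joins glycolysis to the citric acid cycle. Its E1 component, a heterotetramer of the PDHA1 and PDHB chains, decarboxylates pyruvate. E2 (DLAT) passes the acetyl group to coenzyme A through lipoic acid arms, PDHX anchors E3, and E3 (encoded by Dld) reoxidises the lipoic acid. The kinases phosphorylate E1α and switch the complex off, whereas the phosphatases PDP1 and PDP2 remove the phosphate and switch it on. PDK4 is the isoform known for its rise in fasting and in muscle and heart that burn fatty acids, and PDK1 is a textbook target of HIF1α. Since only RNA was measured, neither phosphorylation nor the activity of the complex is known from these values.

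Cold exposure raised the transcripts of the complex, of 2 of its kinases and of 1 of its phosphatases. In WT mice, 7 of the 10 genes were higher in cold than at TN and none was lower at an adjusted p under 0.05 (quasi-likelihood test of edgeR, Benjamini-Hochberg adjusted over the 15306 genes), where 15.6% of all tested genes were called higher and 5.68% lower. In HIF2α AKO mice, the same 7 genes (Pdha1, Pdhb, Dlat, Pdhx, Pdk2, Pdk4 and Pdp2) were higher and none was lower, against 15.6% and 11.5% of all genes. In both genotypes the 3 cold mice were all above the 3 TN mice for these 7 genes, as they were for 22.7% of all genes in WT and 24.9% in HIF2α AKO mice. The share of all genes without overlap when the genotypes are pooled, as described for single genes below, was not computed. The median log2 fold change of the 10 genes was 1.78 in WT and 1.74 in HIF2α AKO mice, beside -0.03 and -0.05 for all tested genes. Pdk1, Pdk3 and Pdp1 were not called in either genotype. In bulk tissue, a larger share of the cells that express a gene and more RNA of it per cell cannot be told apart.

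**Figure D1:**
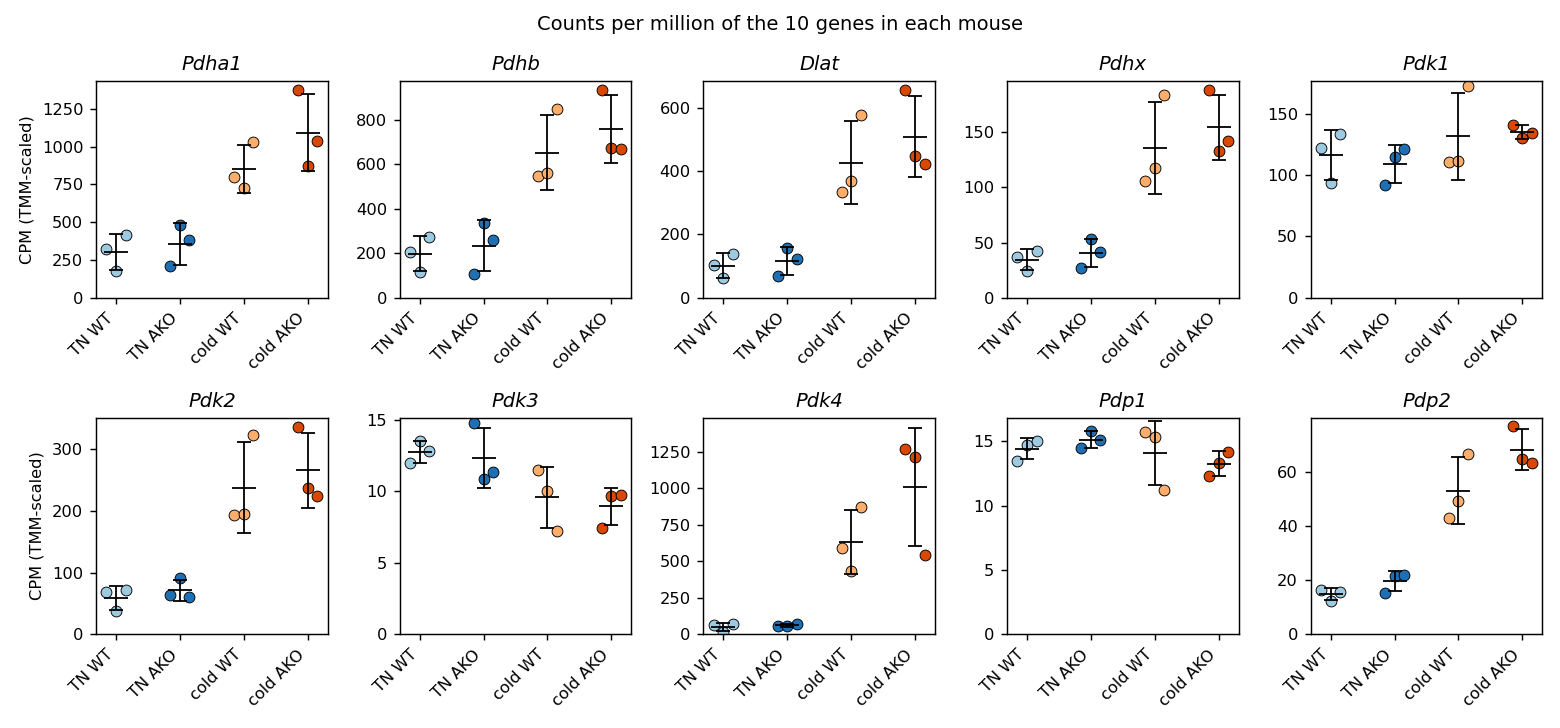
Levels in CPM (read counts scaled to library size by TMM) of the 10 genes on linear axes that start at 0, with 1 point per mouse in each of the 4 groups (TN in blue, cold in orange, HIF2α AKO in the darker shade), and with the mean and SD of 3 mice as bars. In 7 panels the 3 cold mice of each genotype lie above its 3 TN mice, as for 22.7% of all genes in WT and 24.9% in HIF2α AKO mice. Pdk1, Pdk3 and Pdp1 were not called. The means of Pdk3 are 12.8 and 12.3 CPM at TN and 9.58 and 8.96 CPM in cold (WT, then HIF2α AKO).

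Among the subunits, Pdha1, which encodes the catalytic E1α chain that the kinases phosphorylate, had 322, 178 and 414 CPM (counts per 1000000 of the TMM-scaled library size, replicates 1 to 3) in TN WT mice and 799, 729 and 1034 CPM in cold WT mice. It had 207, 481 and 381 CPM in TN HIF2α AKO mice and 1374, 871 and 1034 CPM in cold HIF2α AKO mice. All 6 cold mice were above all 6 TN mice, and the lowest values belonged to TN WT 2 and TN HIF2α AKO 1. The rise was 2.80-fold in WT (log2 fold change 1.49, SE 0.35, edgeR adjusted p = 0.0145) and 3.07-fold in HIF2α AKO mice (1.62, SE 0.35, edgeR adjusted p = 0.00877).

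Pdhb, the E1β chain, was at 206, 115 and 273 CPM in TN WT and at 549, 561 and 848 CPM in cold WT mice. In HIF2α AKO mice it was at 107, 336 and 261 CPM at TN and at 934, 674 and 671 CPM in cold. Again no cold mouse overlapped with a TN mouse, and TN WT 2 and TN HIF2α AKO 1 were lowest. The log2 fold change was 1.72 (SE 0.41, edgeR adjusted p = 0.0148) in WT and 1.69 (SE 0.41, edgeR adjusted p = 0.0138) in HIF2α AKO mice. In WT mice, both E1 genes missed the limit without TN WT 2 or without cold WT 3, when the edgeR adjusted p of Pdha1 and Pdhb lay between 0.0535 and 0.0597. In HIF2α AKO mice, Pdhb missed it without cold HIF2α AKO 1, a library with skeletal muscle markers (edgeR adjusted p = 0.0572).

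Dlat, the E2 core on which the complex is built, showed the largest fitted rise among the subunits. Its levels were 103, 61.6 and 139 CPM in TN WT, 333, 368 and 576 CPM in cold WT, 68.5, 156 and 122 CPM in TN HIF2α AKO and 654, 448 and 422 CPM in cold HIF2α AKO mice. The cold and TN mice were separated by more than the whole range of the TN mice. The rise was 4.20-fold (95% interval 2.39 to 7.36, edgeR adjusted p = 0.00392) in WT and 4.39-fold (2.50 to 7.71, edgeR adjusted p = 0.00266) in HIF2α AKO mice. Pdhx, which encodes the protein that binds E3 to the core, lay between 24.1 and 53.0 CPM in the TN mice and between 106 and 188 CPM in the cold mice. Its rise was 3.93-fold in WT (edgeR adjusted p = 0.00189) and 3.80-fold in HIF2α AKO mice (edgeR adjusted p = 0.00145).

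Among the kinases, Pdk4 had the largest cold response of the 10 genes. It was at 62.4, 18.8 and 67.6 CPM in TN WT and at 57.3, 55.3 and 71.3 CPM in TN HIF2α AKO mice. In cold it reached 588, 436 and 868 CPM in WT and 1269, 1211 and 543 CPM in HIF2α AKO mice. Every cold mouse was thus far above every TN mouse, TN WT 2 stood below the other 5 TN mice, and cold HIF2α AKO 3 stood below the other two mice of its group. The rise was 12.7-fold (95% interval 5.96 to 27.1, edgeR adjusted p = 0.0011) in WT and 16.4-fold (7.61 to 35.5, edgeR adjusted p = 0.000461) in HIF2α AKO mice. Without TN WT 2, the log2 fold change in WT was 3.26 instead of 3.67.

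Pdk2, the kinase found in most tissues, followed the subunits rather than Pdk4 in the size of its change. It was at 68.6, 37.2 and 72.2 CPM in TN WT and at 194, 195 and 322 CPM in cold WT mice, and at 63.1, 90.6 and 59.8 CPM in TN and 335, 237 and 224 CPM in cold HIF2α AKO mice. The groups did not overlap in either genotype. The rise was 4.00-fold in WT (edgeR adjusted p = 0.00185) and 3.73-fold in HIF2α AKO mice (edgeR adjusted p = 0.00161).

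Pdk1, the kinase known as a HIF1α target, was at 122, 93.3 and 133 CPM in TN WT and at 110.5, 112 and 173 CPM in cold WT mice, and these groups overlapped. In HIF2α AKO mice it was at 91.9, 114 and 121 CPM at TN and at 141, 130.1 and 134 CPM in cold, where the 3 cold mice were above the 3 TN mice. The fitted ratios of cold to TN were 1.13 (95% interval 0.850 to 1.51, edgeR adjusted p = 0.492) and 1.24 (0.930 to 1.65, edgeR adjusted p = 0.228), which bound a change within these intervals but do not show that there was none. Pdk3 had the lowest level per length of the kinases. All 3 cold WT mice (11.5, 10.0 and 7.24 CPM) were below the 3 TN WT mice (12.0, 13.5 and 12.8 CPM), as were 19.3% of all genes, and the 3 cold HIF2α AKO mice (7.46, 9.69 and 9.74 CPM) were below those at TN (14.8, 10.9 and 11.3 CPM), as were 25.6% of all genes. The log2 fold changes of Pdk3, -0.41 (SE 0.19) and -0.46 (SE 0.19), did not pass the test (edgeR adjusted p = 0.124 and 0.086). The fitted ratios were 0.751 (95% interval 0.566 to 0.996) and 0.728 (0.548 to 0.967). These intervals leave out a ratio of no change but are not adjusted for the number of genes tested.

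The phosphatases split in the same way. Pdp2 was at 16.5, 12.2 and 15.7 CPM in TN WT, 43.0, 49.3 and 66.7 CPM in cold WT, 15.3, 21.7 and 21.8 CPM in TN HIF2α AKO and 76.7, 64.5 and 63.0 CPM in cold HIF2α AKO mice. No cold mouse reached down to a TN mouse, and Pdp2 ranked above Pdk4 by p-value, at rank 40 of all tested genes in WT. It rose 3.57-fold (95% interval 2.66 to 4.80, edgeR adjusted p = 0.000453) in WT and 3.47-fold (2.59 to 4.65, edgeR adjusted p = 0.000265) in HIF2α AKO mice. Pdp1, the calcium-stimulated phosphatase, lay between 11.2 and 15.8 CPM in all 12 mice. Its cold and TN values overlapped in WT mice. In HIF2α AKO mice, the cold values (12.3, 13.3 and 14.2 CPM) were all below those at TN (14.5, 15.8 and 15.1 CPM). The same held for 25.6% of all genes. The fitted ratio of cold to TN for Pdp1 was 0.976 (95% interval 0.800 to 1.19, edgeR adjusted p = 0.856) in WT and 0.878 (0.720 to 1.07, edgeR adjusted p = 0.292) in HIF2α AKO mice.

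**Figure D2:**
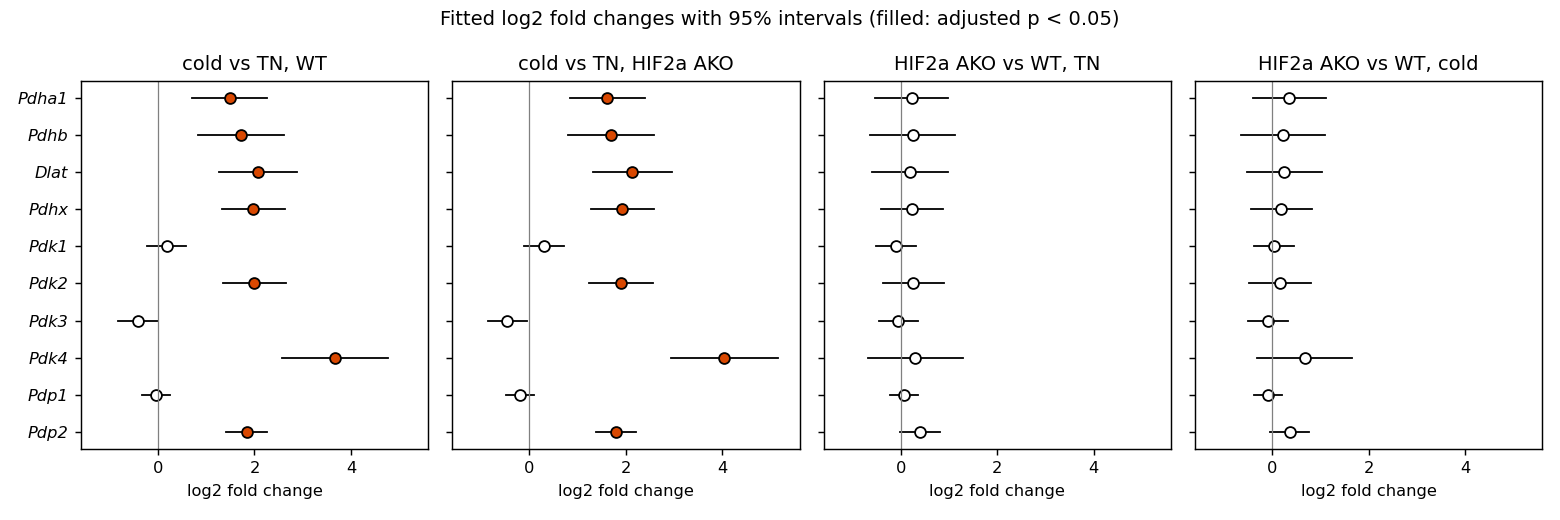
Fitted log2 fold changes of the 10 genes with 95% intervals (x axis) in the 4 comparisons, from edgeR's model of all 12 libraries, where filled points have an adjusted p under 0.05. Pdk4 stands farthest to the right in both comparisons of cold with TN (3.67 and 4.04), and all intervals of HIF2α AKO against WT include 0.

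Because the TN mice with the lowest subunit levels also had the lowest adipocyte markers, the levels were set beside these markers. The geometric mean of 6 adipocyte genes (Adipoq, Plin1, Lep, Fabp4, Cidec and Lipe) was 486 CPM in TN WT 2 and 608 CPM in TN HIF2α AKO 1, between 844 and 1322 CPM in the other 4 TN mice and between 1374 and 2371 CPM in the 6 cold mice. Within the 6 TN mice, Pdha1 stood in the same order as these markers, whereas Pdk4 was between 55.3 and 71.3 CPM in all of them but TN WT 2. Fabp4 made up 45.6 to 66.3% of the summed markers and was itself called higher in cold in both genotypes, Cidec was called higher in WT, and the other 4 were not called in either genotype. The summed lymphocyte markers were 1449 to 2322 CPM at TN and 809 to 1455 CPM in cold, and those of fibroblasts and progenitors were 3829 to 5403 and 2210 to 3237 CPM. Macrophage markers summed to 1638 to 2834 CPM at TN and 1337 to 2613 CPM in cold, and endothelial markers to 774 to 968 and 948 to 1085 CPM. Of these lists, 1 of 8 lymphocyte, 2 of 6 fibroblast and 0 of 8 macrophage markers were called lower in cold in WT, and 3 of 8, 4 of 6 and 3 of 8 in HIF2α AKO mice. Epithelial markers summed to 200.05 CPM in TN WT 3 and to 2.95 to 10.3 CPM in the other 11 libraries. Without TN WT 3, the number of the 10 genes called was 7 in each genotype, beside 24.1% of all genes in WT and 28.8% in HIF2α AKO mice. The part of cell composition in the changes of the 10 genes was not tested.

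When counts were scaled to these adipocyte markers in place of all genes, the fitted cold responses of all 10 genes moved down, and fewer rises were called in WT mice under both scalings and in HIF2α AKO mice under scaling by the sum. Scaling by their geometric mean moved the median log2 fold change of all genes to -1.22 in WT and -0.96 in HIF2α AKO mice, and scaling by their sum to -1.54 and -1.23. Of all tested genes, the geometric mean called 71.3% in WT and 34.9% in HIF2α AKO mice, and the sum called 87.1% and 73.6%. Pdk4 stayed higher in cold under both, by 2.63 (SE 0.40) and 2.32 (SE 0.36) in WT and by 3.09 (SE 0.40) and 2.81 (SE 0.37) in HIF2α AKO mice. By the geometric mean, Pdk2, Pdk4, Dlat and Pdhx were called higher in WT, and all 7 genes named above were called higher in HIF2α AKO mice. By the sum, only Pdk4 and Dlat were called higher in WT, with Pdk2 and Pdhx in addition in HIF2α AKO mice. Pdha1 in WT then differed by 0.42 (SE 0.29) and 0.11 (SE 0.28) on the log2 scale, neither of which passed the test. Pdk1, Pdk3 and Pdp1 were called lower in WT under both scalings, with log2 fold changes from -1.01 to -1.90, which lay between -0.36 and 0.22 of the shifted median of all genes.

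**Figure D3:**
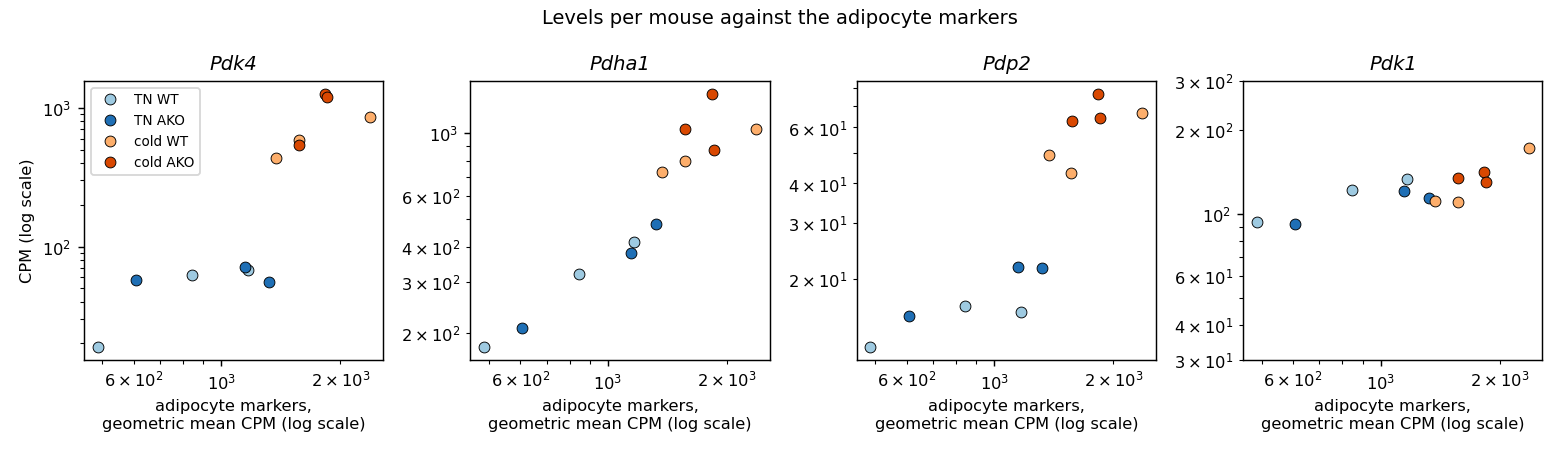
CPM of Pdk4, Pdha1, Pdp2 and Pdk1 (log y axes) against the geometric mean CPM of 6 adipocyte markers (log x axes), with 1 point per mouse coloured by group. Pdha1 climbs with the markers within the TN mice and across the groups, while Pdk4 is flat from 608 to 1322 CPM of the markers at TN and lies at 436 to 1269 CPM in all cold mice.

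To compare the genes without any scaling between libraries, the ratio of each pair was taken within each mouse. The log2 ratio of cold to TN was averaged over genotypes and tested by exact permutation of temperature within genotype (two-sided, 400 permutations, smallest possible p = 0.005). This test was chosen after the values had been seen. Of the 45 pairs, 32 had a Benjamini-Hochberg adjusted p under 0.05, and the smallest adjusted p was 0.00804. The pairs reuse the same genes and are thus not independent of each other. The share of pairs among all tested genes that would pass, or show no overlap, was not computed. The count therefore does not set these genes apart from others. Pdk4 rose against each of the other 9 genes, from 3.33-fold against Dlat to 4.82-fold against Pdha1 and more against Pdk1, Pdp1 and Pdk3, and no cold mouse overlapped with a TN mouse in any of these 9 ratios (each exact permutation adjusted p = 0.00804). Pdk1, Pdk3 and Pdp1 each fell against each of the 4 subunits, by 1.38 (Pdk1 against Pdha1) to 2.59 (Pdk3 against Dlat) on the log2 scale (each exact permutation adjusted p = 0.00804).

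Within the complex itself, the ratios moved far less. The ratio of Pdha1 to Dlat dropped by 0.53 on the log2 scale without overlap between cold and TN mice (exact permutation adjusted p = 0.00804), so that E2 transcripts rose more than those of E1α. Smaller changes were seen for Pdha1 to Pdhx (-0.35) and Pdhb to Dlat (-0.34), for which cold and TN mice overlapped (exact permutation adjusted p = 0.0145 for each). Pdha1 to Pdhb, the chains of E1, changed by -0.19 and did not pass (exact permutation adjusted p = 0.0836). Pdk2 to Pdhx changed by -0.01 (exact permutation adjusted p = 0.96) and Pdp2 to Pdhb by 0.01 (exact permutation adjusted p = 0.96), and none of the 8 ratios of Pdk2 or Pdp2 to a subunit passed.

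**Figure D4:**
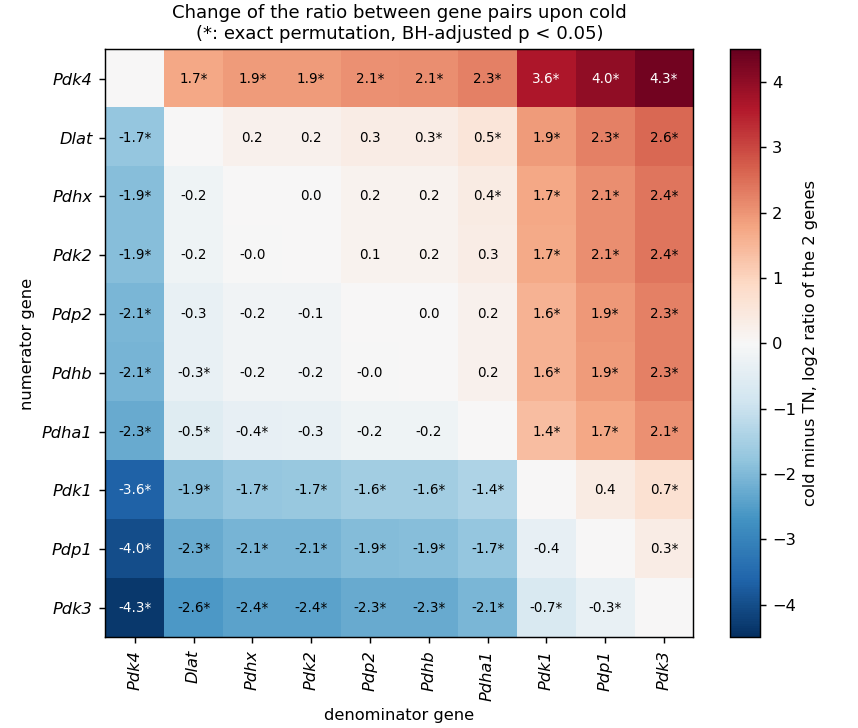
Change upon cold of the log2 ratio of the gene in each row to the gene in each column, averaged over both genotypes (color scale, log2 units), with an asterisk where the exact permutation test passed an adjusted p of 0.05. Pdk4 in the top row rose against all others, the genes Dlat to Pdha1 form a block near 0, and Pdk1, Pdp1 and Pdk3 fell against that block.

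These changes altered which kinase transcript prevailed. Per length of annotated exons (RPKM, read counts divided by exon length and by library size), Pdk4 made up 15.6 to 34.3% of the summed kinase transcripts in the 6 TN mice and 60.8 to 78.3% in the 6 cold mice. Pdk1 went from 21.9 to 34.9% at TN to 3.71 to 7.02% in cold, and Pdk3 from 6.70 to 15.3% to 0.596 to 1.92%. Pdk2 had 31.9 to 45.2% at TN, where it was the largest share in 4 of 6 mice, and 17.0 to 30.2% in cold. The summed kinase level was 52.8 ± 16.1 RPKM (SD, n = 3) in TN WT, 58.8 ± 4.76 in TN HIF2α AKO, 275 ± 88.2 in cold WT and 392 ± 128 in cold HIF2α AKO mice. Relative to the summed level of the 4 subunits, it was 0.333 ± 0.0370 and 0.349 ± 0.147 at TN and 0.524 ± 0.0575 and 0.624 ± 0.198 in cold. In this ratio, cold and TN mice overlapped in HIF2α AKO, where TN HIF2α AKO 1 was at 0.517 and cold HIF2α AKO 3 at 0.430. They did not overlap in WT, at 0.291 to 0.357 at TN and 0.459 to 0.566 in cold. Among the phosphatases, Pdp2 had 39.7 to 53.4% at TN and 68.4 to 83.2% in cold. These shares are given as descriptions without a test, and they depend on the length used. By the union of exons and the longest transcript, Pdk1 has 7779 and 5185 bases and Pdk2 3163 and 2246. Pdk3 has 2561 and 2115, and Pdk4 has 3511 and 3484. The longest transcript would thus lower the share of Pdk4, and shares by that length were not computed.

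**Figure D5:**
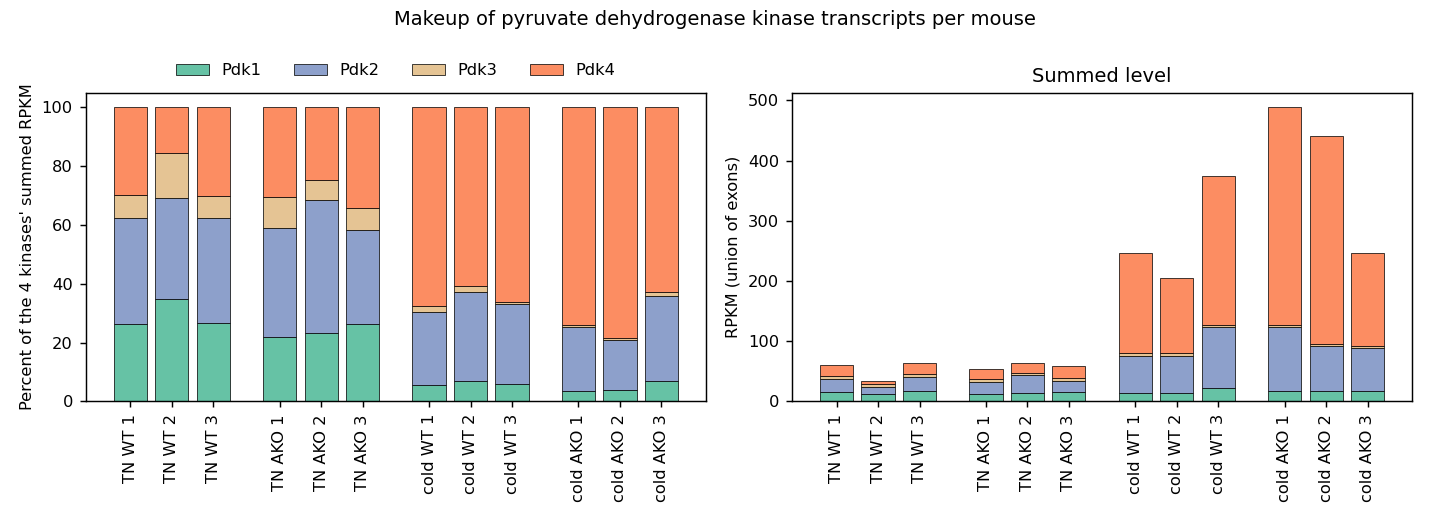
Share of each kinase in the summed RPKM of Pdk1 to Pdk4 (left, percent) and the summed level itself (right, RPKM), with 1 bar per mouse. Pdk4 takes 60.8 to 78.3% of each cold bar against 15.6 to 34.3% at TN, and the cold bars are several times higher.

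Per length, Pdha1 had the highest mean of the 10 genes in every group, at 81.5 ± 31.8 RPKM (SD, n = 3) in TN WT and 229 ± 42.8 RPKM in cold WT mice. Pdhb was at position 2 at TN (51.3 ± 20.5 RPKM in WT), and its range overlapped that of Pdha1. Pdk4 was at position 6 in TN WT mice with 14.1 ± 7.63 RPKM, where its range overlapped those of Pdk1 and Pdhx, and at position 2 in cold WT mice with 180 ± 62.3 RPKM, where its range overlapped those of Pdha1 and Pdhb. In cold HIF2α AKO mice it was at 287 ± 115 RPKM beside 293 ± 68.7 RPKM of Pdha1. With the length of the longest transcript in place of all exons, Pdk4 stood at position 3 in both cold groups. Pdp1 and Pdp2 had the lowest means at TN (Pdp2 at 2.15 to 2.89 RPKM and Pdp1 at 2.99 to 3.34 RPKM in WT), and Pdk3 and Pdp1 did in cold (3.74 and 3.12 RPKM in WT), where Pdp2 was at 9.31 RPKM.

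The HIF2α AKO and WT mice were then compared within each temperature, the question for which the knockout was made. Epas1, which encodes HIF2α, was at 278 to 430 CPM in TN WT and 289 to 394 CPM in TN HIF2α AKO mice, and at 562 to 743 CPM in cold WT and 743 to 986 CPM in cold HIF2α AKO mice, so that the whole-gene counts did not fall with the label HIF2α AKO (log2 difference 0.40 in cold, edgeR adjusted p = 1.00). These counts include exons outside the deleted part. By RT-qPCR, the paper reports lower Hif1a and/or Hif2a mRNA in adipose tissue of its knockout mice. None of the 10 genes was called between the libraries labelled HIF2α AKO and WT, at TN or in cold (edgeR), where 0.00653% of all tested genes were called in each. At an unadjusted p under 0.05, edgeR also gave 0 of the 10 genes at either temperature. By edgeR, 2.95% of all genes stood under that limit in cold and 2.91% at TN. DESeq2 gave 0 at both temperatures and voom gave 1 at each (Pdp2), while their shares of all genes were not computed. All 10 genes overlapped between the genotypes at both temperatures, where 7.53% of all genes did not overlap in cold and 7.69% did not at TN. At both temperatures 8 of the 10 genes had a fitted value higher in HIF2α AKO, as had 43.8% of all genes in cold and 54.3% at TN, and the median log2 difference was 0.20 in cold and 0.23 at TN.

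Pdp2 and Pdk4 had the largest fitted differences between genotypes, none of which passed the test. Pdp2 was at 76.7, 64.5 and 63.0 CPM in the cold libraries labelled HIF2α AKO and at 43.0, 49.3 and 66.7 CPM in cold WT mice, so that cold WT 3 lay within the range of the other genotype. The ratio was 1.28 (95% interval 0.968 to 1.70, edgeR unadjusted p = 0.0778) in cold and 1.32 (0.990 to 1.77, edgeR unadjusted p = 0.0573) at TN. Averaged over both temperatures, a comparison added after the values had been seen, the difference of Pdp2 was 0.38 (SE 0.13, edgeR unadjusted p = 0.015 and adjusted p = 1.00), at rank 128 of all tested genes, of which 3.64% had an unadjusted p under 0.05. Pdk4 in cold had a ratio of 1.60 (95% interval 0.808 to 3.16, edgeR adjusted p = 1.00), with 2 HIF2α AKO mice above all WT mice and the third among them. The study used looser limits (p under 0.15 without adjustment, log2 fold change beyond 0.2 in size) with DESeq2 for cold HIF2α AKO against cold WT. Here they were applied to the edgeR values at both temperatures. By these limits, 1 of the 10 genes (Pdp2) was higher in HIF2α AKO in cold, where 4.74% of all genes were, and 1 (Pdp2) at TN, where 3.97% were. Pdk4 in cold missed them at an edgeR unadjusted p of 0.159.

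Skeletal muscle markers marked out a pair of HIF2α AKO libraries. The sum of 12 muscle markers was 1322 CPM in cold HIF2α AKO 1 and 1608 CPM in TN HIF2α AKO 2, against 15.2 to 102 CPM in the other 10 libraries. Cold HIF2α AKO 1 had the highest level of Pdha1, Pdhb, Dlat, Pdhx, Pdk2, Pdk4 and Pdp2 of all 12 libraries, and TN HIF2α AKO 2 had the highest of Pdha1, Pdhb, Dlat, Pdhx and Pdk2 at TN. TN HIF2α AKO 2 also had the highest geometric mean of the adipocyte markers at TN (1322 CPM). Cold HIF2α AKO 1 (1830 CPM) did not have the highest in cold, which was that of cold WT 3 (2371 CPM). The part of muscle or adipocyte content in these levels was not tested. With both muscle-marked libraries left out, the same 7 genes were called higher in cold in each genotype, the cold response of Pdk4 in HIF2α AKO mice was 3.77 (SE 0.65) and 0 of the 10 genes was called between genotypes. Of all genes, 19.5% were then called for cold against TN in WT and 9.8% in HIF2α AKO mice.

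No difference in the cold response between genotypes passed the test of the interaction of genotype and temperature. The quasi-likelihood test called 0 of the 10 genes, as it did 0% of all genes, and 0 of the 10 had an unadjusted p under 0.05, where 2.14% of all genes did. DESeq2 gave 0 at that unadjusted limit as well, and voom gave 1 (Pdp1), while their shares of all genes were not computed. Pdk4 responded 1.29 times as strongly in HIF2α AKO as in WT mice, with an interval of 0.493 to 3.40 that leaves room for a difference in either direction. The narrowest interval was that of Pdp1, 0.679 to 1.19.

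Genes around the complex in metabolism were also called higher in cold. The counts of the lists described here and in the next paragraphs stand beside 15.6% of all tested genes called higher in each genotype, and 5.68% called lower in WT and 11.5% in HIF2α AKO mice, and no list was tested against other genes. Dld, the E3 subunit shared with other 2-oxo acid dehydrogenases, was at 96.3 to 183 CPM at TN and at 353 to 681 CPM in cold (log2 fold change 1.68 in WT and 1.89 in HIF2α AKO mice, edgeR adjusted p = 0.00283 and 0.00119). Pdpr, the regulatory subunit that restrains the phosphatase, rose by 0.70 and 0.75, and Pdha2, the E1α gene of the testis, had 0 counts in all 12 libraries, which allows up to 3 counts in each. Of 10 genes that supply pyruvate or use it otherwise, 6 rose in WT and 7 in HIF2α AKO mice, and none fell (median log2 fold change 1.58 and 1.23). Mpc1 and Mpc2, the mitochondrial pyruvate carrier, rose by 1.97 and 1.89 in WT mice, Cs, the citrate synthase that takes up acetyl-CoA, by 1.70, and Ldhb by 2.75. Gpt2 and Pkm rose by 1.75 and 0.85. Pcx, the pyruvate carboxylase, was not called (0.79 in WT, edgeR adjusted p = 0.21), and Ldha was called in HIF2α AKO mice (1.01) but not in WT (0.88, edgeR adjusted p = 0.0766), while the difference between these responses did not pass the test (interaction 0.13, SE 0.46, edgeR adjusted p = 1.00).

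The lipoic acid arms of E2 are made by a pathway of their own. All 12 of its genes tested rose in WT and 11 in HIF2α AKO mice (median 0.89 and 0.96), and Lipt2, named after its value was seen, was the one not called (0.60, edgeR adjusted p = 0.0651). The leading genes in WT were Lipt1 (1.77), Mecr (1.71) and Isca1 (1.30). Of 8 genes of the related 2-oxo acid dehydrogenases, 6 rose in each genotype (median 1.26 and 1.11), among them Ogdh (2.02 in WT) and Dlst (1.92) of the oxoglutarate dehydrogenase and Dbt (1.36) of the branched-chain complex. Bckdk, the kinase of the branched-chain complex and a relative of the Pdk family, rose by 0.84 in WT and 0.96 in HIF2α AKO mice on the log2 scale, beside 3.67 and 4.04 for Pdk4.

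Known regulators of Pdk transcription also changed in cold. Of 13 such genes, 8 rose in WT, and 8 rose and 1 fell in HIF2α AKO mice (Foxo3, named after its value was seen, -0.74, edgeR adjusted p = 0.0106). Ppara, the fatty acid receptor that drives Pdk4 in liver and muscle, rose by 3.33 in WT and 2.98 in HIF2α AKO mice. The estrogen-related receptors Esrra and Esrrg rose by 1.61 and 2.37 in WT mice, and their coactivators Ppargc1a and Ppargc1b by 2.56 and 2.04. Epas1 itself rose by 0.80 and 1.25. Of 13 textbook HIF target genes, 6 rose in each genotype and none fell (median 0.47 and 0.05), led in WT by Pgk1 (1.60), Hk2 (2.26) and Pfkfb3 (1.62). Of 8 thermogenic genes, 7 rose in WT and 8 in HIF2α AKO mice (median 5.06 and 5.42), with Ucp1 at 0.204 to 3.85 CPM at TN and at 2171 to 5897 CPM in cold. In none of these 7 lists was a gene called between genotypes.

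Since HIF2α binds hypoxia response elements, the promoters of the kinases and of Pdp2 were searched for the element's core. Promoters came from RefSeq (GRCm38.p6, 250 bases before to 50 after the annotated start), of which 9 of the 10 genes had 11. The letters ACGTG, on either strand, were found in 4 of the 11 (Pdk2, Pdk3, Pdhb and Pdp2) and in 19.6% of all 32851 promoters, and GCGTG in 6 of the 11 (Pdk1, Pdk3, Pdk4, Pdha1, Pdhb and Pdhx) and in 32.4%. The windows below are shown because these 5 genes span the range of cold responses, and the capitals mark the core, read 5′ to 3′ on the strand of the gene.
Pdk1: ccgcctacatggGCGTGtctttaaccaggg
Pdk2: tcgaggagagccACGTGtcgaagcgcaagg
Pdk3: cgcgcgccgcgtACGTGcggcggcagatcc
Pdk4: gttgtggagaggGCGTGgaggtagataaaa
Pdp2: gggaagagccccACGTGacgacctactggc
They lie at chr2:71873134-71873163 (plus strand), chr11:95041479-95041508 (minus), chrX:93832186-93832215 (minus), chr6:5496332-5496361 (minus) and chr8:104591242-104591271 (plus), with the core starting at positions -78, -125, -53, -71 and -218 from the start. In Pdk2 and Pdp2 the core is part of a palindrome and matches on both strands. Genes with a core in this window thus include Pdk2, Pdk4, Pdp2, Pdha1, Pdhb and Pdhx, which were called higher in cold. They also include Pdk1 and Pdk3, which were not called, while Dlat, called higher, had neither core. A link of the core to the cold response was not tested. The estrogen-related receptor element TNAAGGTCA (1.28% of all promoters), the FOXO element GTAAACA (3.65%) and the PPAR half-site AGGTCA (16.3%, also contained in TNAAGGTCA) were in none of the 11, and the glucocorticoid half-site TGTTCT (19.0%) was in 1 (Pdk1). A match is a run of letters and not a measured site.

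Genes with the most similar pattern over the 12 libraries were found by the root mean square difference of mean-centred log2 CPM, among 13134 genes with a mean count of at least 50. For Pdk4, whose log2 CPM had an SD of 2.13 over the libraries, they were Pank1 (0.44), which makes the rate-limiting kinase of coenzyme A synthesis, Cox8b (0.46), Plin5 (0.48), Fbp2 (0.51) and Phospho1 (0.53). For Pdha1 (SD 0.95) they were Aldoa (0.09), a glycolytic aldolase, Ifi27l1 (0.13), Acyp2 (0.13), Uqcr11 (0.14) and Ndufb9 (0.14), the last of which are subunits of the respiratory chain. For Pdp2 (SD 0.99) they were Slc25a51 (0.14), the mitochondrial NAD carrier, Grpel1 (0.15), Idh3b (0.15), Abhd6 (0.15) and Uqcrc1 (0.16). For Pdk1 (SD 0.25), whose pattern is nearly flat, they were Fbxo4 (0.09), Wbp2 (0.10), Itga6 (0.10), Gnptab (0.10) and Mien1 (0.11). All of these share the libraries and their scaling with the gene they resemble.

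The 10 genes lie on 8 chromosomes of GRCm38, Pdk1 and Pdhx on chromosome 2 and Pdha1 and Pdk3 on X. In the GENCODE annotation, the span of Pdha1 (chrX:160122209-160138413, minus strand) overlaps that of Map3k15 on the other strand, which had 1.84 to 3.89 CPM, and Pdk2 overlaps the antisense gene Gm11513, which has no row in the count table. As the strand setting of the counting is not given in the sources used here, reads of such pairs cannot be told apart.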

How the data were processed

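The deposited values were read counts per gene for 12 iWAT libraries. The authors trimmed reads with Trim Galore 0.4.4, aligned them with STAR 2.6.1d to GRCm38 and made the counts with HTSeq 0.13.5, without normalization, per the paper's methods and the labels. The annotation and strand setting are not given in the sources used here. The submitters' processing notes also name DESeq2 1.30.0. For all 12 libraries, the series table matched the table deposited for the sample in every row. Tallies of reads outside genes (21.9 to 27.0% of listed reads) were left out. Intervals cover the spread between mice, and limits at 0 counts cover counting error only.

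Counts were analysed with edgeR 4.0.16 (R 4.3.3). Genes were kept by filterByExpr (minimum count 10, minimum total 15), scaled by TMM and fitted as 1 factor of 4 groups. Quasi-likelihood tests were made for cold against TN in each genotype, HIF2α AKO against WT at each temperature and their interaction, and p-values were adjusted by Benjamini-Hochberg over 15306 genes with a limit of 0.05. The biological coefficient of variation was 0.202, and the 10 genes had at least 154 counts in every library. RPKM used the union of exons in GENCODE M21. Alternatives were other size factors, filters, tools (DESeq2 1.42.0, limma 3.58.1), samples in the fit, a replicate block, a muscle covariate, each library left out in turn, and, chosen after seeing the data, scaling to adipocyte markers and leaving out library pairs. The script was tested on simulated data. The genes and lists were chosen with earlier results of these data known. Other genes were named by rule: key enzymes of each list plus up to 3 genes per list with the smallest adjusted p for cold against TN in WT, and the 5 genes closest in pattern to Pdk1, Pdk4, Pdha1 and Pdp2.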

Additional observations from a re-analysis of the deposited data

How the results depend on the processing

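The counts of 7 genes higher in cold in WT and 7 in HIF2α AKO mice, and of 0 between genotypes and for the interaction, were the same with other size factors and filters, with DESeq2 and voom and with a replicate block, and, for all but the interaction, which needs all groups, with the 2 groups alone. Over these settings, 11.7 to 30.6% of all genes were called for cold against TN in WT and 18.3 to 40.1% in HIF2α AKO mice. The share was at most 0.0525% between genotypes and 0% for the interaction. Whether replicate numbers pair the mice is not known. Of 18 pairs of same-numbered libraries, 5 had correlated deviations above 0.1 (range -0.43 to 0.39), and differently numbered pairs were not compared. The block called 7, 7, 0, 0 and 0 of the 10 genes in the 5 comparisons. With the muscle markers as a covariate, 8 were called in HIF2α AKO mice, Pdk3 being lower (edgeR adjusted p = 0.0499), beside 31.2% of all genes. By the thresholds of the study, applied to the edgeR values, 1 of the 10 genes differed between genotypes in cold instead of 0. Without 1 library at a time, the count was 5 to 7 in WT and 6 to 8 in HIF2α AKO mice (without cold HIF2α AKO 1, Pdhb was lost at an adjusted p of 0.0572; without cold WT 3, Pdk3 was gained as lower at 0.0456). It was 0 in the other comparisons each time. For cold against TN, these fits called 8.91 to 24.1% of all genes in WT and 10.4 to 31.3% in HIF2α AKO mice.

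Scaling to the adipocyte markers called 7 of 10 genes in WT (4 higher and 3 lower) and 8 in HIF2α AKO mice (7 and 1) by their geometric mean, and 5 (2 and 3) and 7 (4 and 3) by their sum. In either direction, 71.3% of all tested genes were called in WT and 34.9% in HIF2α AKO mice by the geometric mean. By the sum, these shares were 87.1% and 73.6%. Signs that turned belonged to values that had not been called. For cold against TN, Pdk1 was at -1.01 and -1.32 in WT and at -0.56 and -0.85 in HIF2α AKO mice under these scalings (geometric mean, then sum), and by voom Pdk1 was at -0.037 and Pdp1 at 0.12 in WT. For HIF2α AKO against WT at TN, the scalings gave -0.28 and -0.31 for Pdp1, -0.088 and -0.063 for Pdha1, -0.12 and -0.074 for Pdhb, -0.13 and -0.11 for Dlat and -0.098 and -0.089 for Pdhx, and for the interaction of Pdp1 they gave 0.10 and 0.15. Without both muscle-marked libraries, the values at TN were 0.034 for Pdk3, -0.050 for Pdha1, -0.10 for Pdhb, -0.090 for Dlat and -0.0059 for Pdhx, and in cold -0.041 for Pdk2 and 0.021 for Pdk3. With the muscle covariate they were -0.038 for Pdk2, 0.016 for Pdk3, -0.019 for Pdhb and -0.0073 for Pdhx in cold. Without both TN libraries lowest in adipocyte markers, Pdk4 was at -0.041 at TN.

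Leaving out 1 library turned the sign of these uncalled values: in WT cold against TN, Pdk1 (-0.066 to 0.29) and Pdp1 (-0.13 to 0.11); between genotypes in cold, Pdk1 (-0.073 to 0.28), Pdk2 (-0.041 to 0.45), Pdk3 (-0.26 to 0.054) and Pdp1 (-0.22 to 0.013); at TN, Pdk1 (-0.23 to 0.019), Pdk3 (-0.20 to 0.034), Pdk4 (-0.084 to 0.59), Pdha1 (-0.050 to 0.51), Pdhb (-0.10 to 0.59), Dlat (-0.090 to 0.49) and Pdhx (-0.0058 to 0.45). The cause of these changes was not tested. With 3 mice a group, 3-against-3 comparisons of 1 value cannot go below an exact permutation p of 0.1.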
